A study of Rattus norvegicus with 40 samples.

Results

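Neonatal rat ventricular heart muscle cells were compared after labelled times of 120 min and 60 min in the ischemia+reperfusion arm of a coverslip hypoxia experiment. In this model a glass coverslip laid on a culture limits the oxygen and medium reaching the cells under it, and lifting it restores them. The comparison took every array with either label, 8 of the 40 arrays, so each time had 4 arrays, a pair of duplicates for either of the 2 cell preparations. The cells of both groups were isolated from neonatal rats and carried no genetic change that the labels name. The labels give neither strain nor age beyond neonatal. They do not say how long reperfusion lasted, which step of the protocol the minutes cover, or whether duplicates were separate cultures. The 8 arrays of ischemia alone at 60 and 120 min serve below as the other arm.

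Cells returned to oxygen after ischemia are known to switch on waves of transcription. Immediate early factors of the AP-1 and Egr families need no new protein to be induced and come first. NF-kB, held in the cytoplasm by its inhibitor until a stimulus frees it, drives cytokines, chemokines and its own inhibitors. Heat shock factor drives the inducible chaperone Hspa1a and its co-chaperones when proteins unfold. Ventricular cultures also hold fibroblasts, endothelial cells and some macrophages, which can take part in these responses.

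From 60 to 120 min, no probe set passed the test as labelled. In limma, with duplicates averaged within a preparation and the preparation as a block, 0 of 18625 probe sets (0%) had a Benjamini-Hochberg adjusted p under 0.05, while 2065 (11.1%) had an unadjusted p under 0.05, 1010 of them higher at 120 min (5.42%) and 1055 lower (5.66%). The smallest adjusted p was 0.051, for A4galt. Il1b, Zc3h12a and Egr1 were among the 12 genes of smallest p in the higher direction. Groups did not overlap for 598 probe sets higher at 120 min (3.21%) and 714 lower (3.83%). None of the differences given here passes the correction unless its sentence says so. The median standard error was 0.118 log2 units, which gives a 95% interval of 0.26 log2 units either way, or 1.2-fold, for a probe set taken alone. A difference smaller than a probe set's own interval could not be told from 0 with this number of arrays, and some intervals were narrower than the median one. Passing the correction over all probe sets asks for more, as Il1b at 1.15 ± 0.19 did not pass (limma adjusted p = 0.16). Because n = 2 preparations per group, and duplicates may be technical, the p-values measure only the spread of these averages.

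The 120 min array of preparation 2, duplicate 1, stood apart from the other 3 arrays of its group, so values without it are given beside the main ones. Its centred values correlated by 0.10 with its own group and by 0.30 with the 120 min arrays of ischemia alone. Its duplicate correlated with it by 0.965, where the other 3 duplicate pairs of the comparison reached 0.983 to 0.986. It was the lowest of the 8 arrays on 22.1% of all probe sets tested and the highest on 20.5%. Of the 22 heat shock proteins and co-chaperones tested, 13 were lowest on it (59.1%) and 0 highest. The 23 NRF2 targets and antioxidant enzymes had 12 lowest (52.2%). Of the 24 sterol synthesis genes, 16 were highest on it (66.7%) and 0 lowest. Without that array 1 probe set passed (0.00537%), A4galt, and 2169 had an unadjusted p under 0.05 (11.6%), 991 higher (5.32%) and 1178 lower (6.32%). Groups then did not overlap for 914 higher (4.91%) and 1090 lower (5.85%). Among the other arrays of that time, preparation 1, duplicate 1, lay slightly nearer to the 60 min group (0.32) than to its own (0.29), and preparation 1, duplicate 2, lay at 0.29 with the 60 min group and with ischemia alone at 120 min, against 0.27 with its own. In ischemia alone at 120 min, the array of preparation 2, duplicate 2, correlated by 0.08 with its own group, by 0.21 with the 60 min and by 0.20 with the 120 min arrays of ischemia+reperfusion. Each of these 2 arrays thus lay nearer to the other arm than to its own group. Whether their labels were exchanged cannot be told from the labels; both were kept as labelled, and they are called the 2 doubted arrays.

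A4galt, the glycosyltransferase that makes the globo-series glycolipid Gb3, was lower at 120 min. Its log2 intensities at 60 min were 9.23, 9.38, 9.22 and 9.26, and at 120 min they were 8.51, 8.62, 7.89 and 8.54, in the order preparation 1 duplicates 1 and 2, then preparation 2 duplicates 1 and 2, which all lists of 4 values below follow. All 4 arrays at 120 min lay below all 4 at 60 min, and the lowest, 7.89, was the array that stood apart. The difference was -0.89 ± 0.10 log2 units (SE, n = 2 preparations; 95% interval -1.11 to -0.66; adjusted p = 0.051 in limma), 1.85-fold lower. Without that array A4galt fell by 0.72 ± 0.07 (adjusted p = 0.01). Its adjusted p was under 0.05 in 10 of 18 alternative fits and ranged from 0.01 to 0.32 over them, with 0.024 without the preparation block, and its change ranged from -1.05 to -0.72. In ischemia alone the A4galt levels of the same 2 times differed by -0.39, and the difference between the arms, -0.50 ± 0.15, did not pass (adjusted p = 0.31). Without the 2 doubted arrays the step in ischemia alone was -0.59, and the difference between the arms was -0.08 ± 0.13 (limma adjusted p = 0.83).

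**Figure D1:**
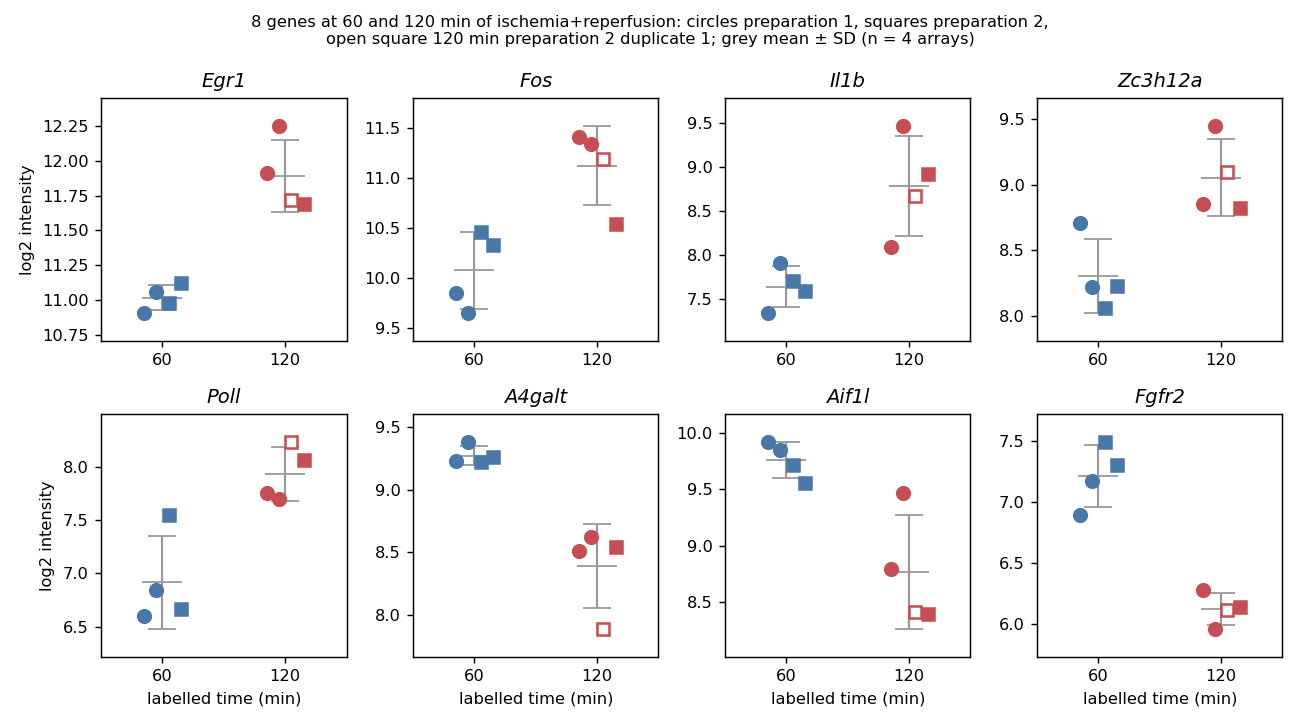
Log2 intensity of 8 genes on the 4 arrays at 60 min (blue) and the 4 at 120 min (red) of ischemia+reperfusion, with the mean and SD of the arrays in grey. Egr1, Fos, Il1b, Zc3h12a and Poll lie higher at 120 min on all 4 arrays, and A4galt, Aif1l and Fgfr2 lower, including or leaving out the open square, the array that stood apart.

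Among the 12 higher genes of smallest p, Il1b and Irak3 act in interleukin-1 signalling. Il1b, the secreted form of interleukin 1 that the inflammasome matures, had log2 values of 7.35, 7.91, 7.71 and 7.60 at 60 min and 8.10, 9.47, 8.67 and 8.92 at 120 min. The 4 later values were all above the 4 earlier ones and spread more widely, with an SD of 0.57 against 0.23. The difference was 1.15 ± 0.19 (interval 0.73 to 1.57; limma adjusted p = 0.16), 2.22-fold, and 1.21 without the array that stood apart. It was 1.15 in preparation 1 and 1.14 in preparation 2. In ischemia alone the Il1b step between the same times was larger, 1.44, and 1.79 without the doubted array of that arm. The difference between the arms was -0.29 ± 0.27 (limma adjusted p = 0.75), and -0.75 ± 0.37 without the 2 doubted arrays. Irak3, a kinase-like brake on interleukin-1 and Toll-like receptor signalling, was at 9.07, 8.92, 8.83 and 8.67, then at 9.55, 9.89, 9.60 and 9.26. The groups stayed separate, and the difference was 0.70 ± 0.12 (limma adjusted p = 0.16), or 0.62 without the array that stood apart.

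Zc3h12a, the ribonuclease Regnase-1 that degrades cytokine messages, was at 8.71, 8.22, 8.06 and 8.23 at 60 min and at 8.85, 9.45, 9.10 and 8.82 at 120 min. The groups did not overlap, although the highest early and lowest late values lay close together. The difference was 0.75 ± 0.11 (interval 0.51 to 0.99; limma adjusted p = 0.13), and 0.68 without the array that stood apart (adjusted p = 0.16). In ischemia alone the Zc3h12a levels of the 2 times differed by 0.08, and the difference between the arms was 0.67 ± 0.16 (adjusted p = 0.23).

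Egr1, an immediate early zinc finger transcription factor, had log2 values of 10.91, 11.06, 10.98 and 11.12 at 60 min and 11.91, 12.25, 11.72 and 11.69 at 120 min. The early values were tight and the later ones all higher, preparation 1 more so (1.09) than preparation 2 (0.66). The difference was 0.87 ± 0.14 (interval 0.56 to 1.18; limma adjusted p = 0.16), 1.83-fold, and 0.86 without the array that stood apart. Over the arm, mean Egr1 was 10.71 at 0 min, 10.44 at 10 min, 10.38 at 30 min, 11.02 at 60 min and 11.89 at 120 min. In ischemia alone it was 12.10 at 60 min and 11.80 at 120 min, and the difference between the arms, 1.16 ± 0.20, did not pass (adjusted p = 0.12).

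Fos, the AP-1 subunit that pairs with Jun proteins, was at 9.85, 9.65, 10.46 and 10.33 at 60 min and at 11.41, 11.34, 11.19 and 10.54 at 120 min. The groups did not overlap, but preparation 2 moved little, 0.47 with all arrays and 0.15 without the array that stood apart, against 1.63 in preparation 1. The difference was 1.05 ± 0.20 (interval 0.60 to 1.5; limma adjusted p = 0.18), and 0.89 ± 0.24 without that array. In ischemia alone Fos was at 11.31 and 11.36 at the same times, and the difference between the arms, 1.00 ± 0.29, did not pass (limma adjusted p = 0.31).

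The other higher genes of smallest p were of mixed function. Poll, a DNA repair polymerase, was at 6.60, 6.84, 7.55 and 6.67 and then at 7.75, 7.70, 8.23 and 8.06. There was no overlap, with a difference of 1.02 ± 0.15 (interval 0.69 to 1.35; limma adjusted p = 0.13), or 0.98 without the array that stood apart. Its 60 min mean, 6.92, was below those of the other 4 times of the arm, which lay between 7.57 and 7.94, so Poll at 120 min was near its level at 0 min, 7.65. Tlk2, a chromatin assembly kinase, differed by 0.44 and Ctdsp1, a phosphatase of the RNA polymerase II tail, by 0.34 on non-overlapping groups. Their other tested probe sets gave -0.15 and -0.07. Eif4e, the cap-binding translation factor, differed by 0.99 on a dim probe set (6.93 at 120 min) and by -0.61 and, on its brightest (11.64), -0.05 elsewhere. Ccnt2, a cyclin of the elongation factor P-TEFb, differed by 0.56, 0.51 and 0.15 on its 3 tested probe sets. Trps1, a repressor of GATA sites, had a difference of 0.65 that dropped to 0.38 without the array that stood apart, and its other 3 tested probe sets gave 0.51, 0.27 and 0.11. Vcf2 (0.45, and -0.05 on its brighter probe set) and Fam98c (1.80, with 1 early array at the floor, 4) complete the 12. Groups overlapped for Trps1, Vcf2 and Fam98c, and for none of the other 9 of the 12, where 3.21% of all probe sets were higher without overlap. Genes picked for small p on these same arrays tend to separate, so this count adds no support.

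Of the 12 lower genes of smallest p, 8 had groups that did not overlap, beside 3.83% of all probe sets. Like the higher genes, they were picked for small p on these same arrays, so this count adds no support. Aif1l, an actin-binding protein related to allograft inflammatory factor 1, was at 9.92, 9.85, 9.72 and 9.56 and then at 8.79, 9.47, 8.41 and 8.39. All later values were lower, by -1 ± 0.18 (interval -1.39 to -0.61; limma adjusted p = 0.16), the same without the array that stood apart, but the brighter of its 2 tested probe sets gave -0.20. Fgfr2, a fibroblast growth factor receptor, was at 6.89, 7.17, 7.49 and 7.30 and then at 6.28, 5.96, 6.11 and 6.14. The difference was -1.09 ± 0.22 (limma adjusted p = 0.18), or -1.08 without the array that stood apart, and its other 2 tested probe sets gave -0.71 and -0.15, so the 3 shared a sign and not a size. Both probe sets of Tmeff1, a transmembrane protein with follistatin-like domains, had non-overlapping groups (-0.48 and -0.32).

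Clock, the activator at the core of the circadian oscillator, differed by -0.72 on its dimmest probe set and by -0.21 and -0.17 on the others. Nr2f6, an orphan nuclear receptor, differed by -0.53 on 1 probe set and by -0.08 on its brighter one, Klhl36, a Cullin-3 adaptor, by -0.56, and Smim23 by -0.39. Of Fam20b, a xylose kinase of proteoglycan synthesis, and Iffo1, a nuclear filament protein, 1 probe set each differed by -0.63 and -0.71, while other probe sets gave 0 and, for Iffo1, -0.16 and -0.32. Iffo1 was -0.24 without the array that stood apart, Ccl27, a skin-homing chemokine, went from -1.01 to -0.36 and Rapgefl1 from -0.54 to -0.24 (-0.07 on its other probe set). These 3 values therefore rested in large part on that 1 array. Without it the differences on the first probe sets given were -0.53 for Clock, -0.37 for Nr2f6 and -0.5 for Fam20b, all nearer to 0. They were -0.65 for Klhl36 and -0.46 for Smim23.

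Across the gene lists, which were chosen with earlier results of these data known, 0 members passed in limma with all arrays. In the list of cytokines and NF-kB targets, 14 of 29 tested members were higher with an unadjusted p under 0.05 (0 lower), where 5.42% of all probe sets were. Without the array that stood apart 12 were, where 5.32% of all probe sets were. The median difference of the list was 0.25, and 0.30 without the array that stood apart, beside -0.01 over all probe sets tested. Its groups did not overlap, with 120 min higher, for 5 members, and for 11 without that array, where 3.21% and 4.91% of all probe sets did so. In both preparations 22 of the 29 were higher and 0 lower. Thus 22 of the 29 had the same direction in both, where 60.3% of all probe sets did, counting either direction. The values of members are not independent of each other, and many of these genes answer to the same stimuli.

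**Figure D2:**
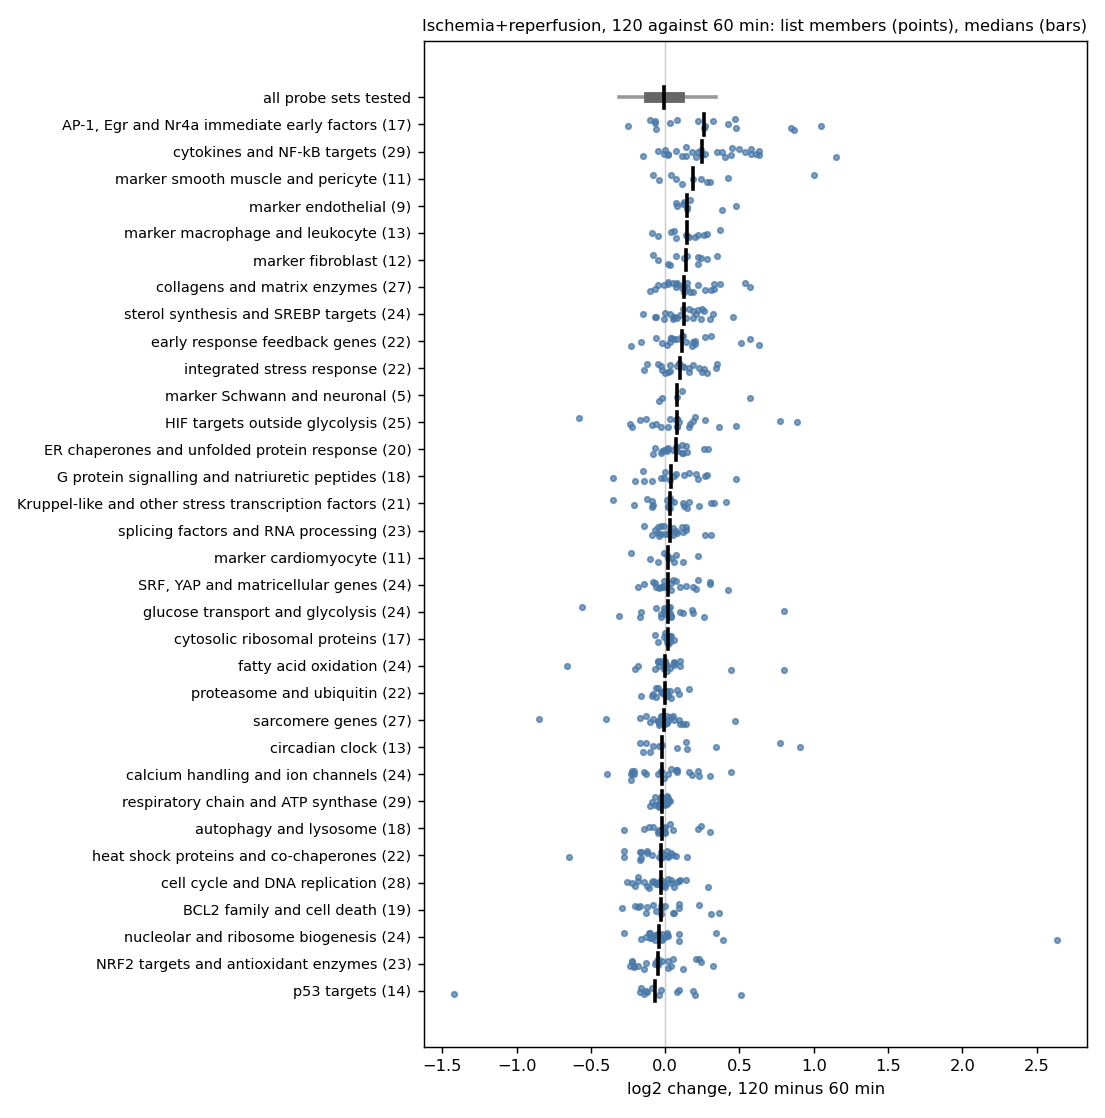
Log2 difference of each tested member (blue points) of 33 gene lists between 120 and 60 min of ischemia+reperfusion, with the list median as a black bar and the number tested in brackets. For all probe sets the thick bar spans the 25th to 75th and the thin bar the 5th to 95th percentile; the medians of the early factors (0.26) and of the cytokine and NF-kB list (0.25) lie farthest to the right.

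Among cytokines and chemokines, differences of log2 level varied in size. Il1a, the largely cell-bound interleukin 1, was higher by 0.63 ± 0.15 on the probe set brightest over the 40 arrays and by 0.78 ± 0.47 on the other. Cxcl1, a neutrophil chemokine, was at 11.81, 12.14, 11.83 and 11.87 and then at 12.12, 12.44, 12.46 and 12.14. They overlapped through 1 early array, 12.14, and the difference was 0.38 ± 0.09 (limma adjusted p = 0.23), or 0.30 without the array that stood apart. Cxcl2, a related chemokine, differed by 0.63 ± 0.24 (0.47 without that array), with 120 min values from 9.19 to 10.39 and early values from 8.91 to 9.23, which overlapped. The macrophage chemokine Ccl4 was at 8.58, 9.04, 8.52 and 8.18 and then at 9.08, 10.52, 7.79 and 9.35. The array that stood apart was the lowest of all 8 for Ccl4, and the difference went from 0.61 to 1.00 without it. Ccl3 (0.24) went to 0.42 in the same way. Levels also rose in ischemia alone, where the means at 60 and 120 min were 9.04 and 10.31 for Cxcl2 and 7.91 and 9.18 for Ccl4. Il6, the acute phase cytokine, differed by 0.54 (0.46 without that array), while Ccl2, the monocyte chemokine, differed by 0.02 ± 0.08 (interval -0.16 to 0.20) at a level near 13.

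The list also holds enzymes, adhesion molecules and matrix proteins. Ptgs2, the inducible cyclooxygenase, differed by 0.58 ± 0.15, and Tnfaip6, a hyaluronan-binding protein, by 0.50 ± 0.13. Without the array that stood apart the values were 0.48 for Ptgs2 and 0.73 for Tnfaip6. Icam1, a leukocyte adhesion molecule, was at 11.17, 11.11, 11.06 and 11 and then at 11.52, 11.82, 11.39 and 11.41. Its groups did not overlap, and the difference was 0.45 ± 0.13 with or without (0.45) the array that stood apart. Vcam1, another adhesion molecule, differed by 0.40, or 0.49 without that array, with non-overlapping groups.

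Genes that encode the NF-kB subunits and their inhibitors differed unequally in level. Nfkbia, the inhibitor IkBa and a direct NF-kB target, was at 10.11, 10.07, 10.10 and 10.10 and then at 10.50, 10.84, 10.45 and 10.36. The early arrays were within 0.04 units of each other, and all later ones lay above them, by 0.44 ± 0.13 (limma adjusted p = 0.27), or 0.42 without the array that stood apart. Mean Nfkbia in ischemia alone was 10.05 at 60 min and 10.62 at 120 min. Nfkb2 differed by 0.35 ± 0.11 (0.44 without that array) and the feedback deubiquitinase Tnfaip3 by 0.58 ± 0.30 (0.75 without the array that stood apart). The subunits Rela (-0.05 ± 0.08), Nfkb1 (0.07 ± 0.10) and Relb (0.11 ± 0.14) had intervals that included 0.

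The promoters of 3 of these genes are shown, picked from members with an unadjusted p under 0.05 and an NF-kB site in the window. Other members with such a site, Nfkb2 among them, are not shown. They come from RefSeq on the rat build GRCr8, 250 bases before the start of transcription, 5′ to 3′ along the gene, with matches to the NF-kB site in capitals (in Cxcl2 a pair of overlapping matches).

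Cxcl1 (chr14:17479322-17479571, minus strand): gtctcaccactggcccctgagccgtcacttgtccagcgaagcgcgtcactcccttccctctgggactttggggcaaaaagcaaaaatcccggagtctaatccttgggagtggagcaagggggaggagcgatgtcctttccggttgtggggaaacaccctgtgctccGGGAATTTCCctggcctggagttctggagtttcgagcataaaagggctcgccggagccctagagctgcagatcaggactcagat

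Cxcl2 (chr14:17467256-17467505, minus strand): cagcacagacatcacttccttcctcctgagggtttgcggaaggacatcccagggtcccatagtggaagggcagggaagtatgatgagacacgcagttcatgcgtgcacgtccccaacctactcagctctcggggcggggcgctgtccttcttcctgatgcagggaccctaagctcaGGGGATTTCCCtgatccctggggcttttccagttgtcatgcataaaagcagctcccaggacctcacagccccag

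Nfkbia (chr6:78597073-78597322, minus strand): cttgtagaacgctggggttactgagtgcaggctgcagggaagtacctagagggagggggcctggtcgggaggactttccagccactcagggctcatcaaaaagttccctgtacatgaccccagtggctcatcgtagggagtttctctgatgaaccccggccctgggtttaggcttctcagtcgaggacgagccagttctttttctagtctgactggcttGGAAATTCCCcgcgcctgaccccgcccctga

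In windows from 250 bases before to 50 after the start, searched on both strands, 13 of the 23 members of the cytokine and NF-kB list that had a window held an NF-kB site (56.5%), beside 5.06% of 27457 windows of all genes. The list was assembled as NF-kB targets, so this share reflects its choice as well. Il1b had a window with none of the 5 motifs searched. The other motifs were the AP-1 site TGANTCA, the HIF core ACGTG, the heat shock element of 3 GAA or TTC units in alternation, each 2 bases apart, and the CArG box bound by serum response factor. In the same list AP-1 sites were in 6 windows (26.1%, beside 7.33%). Of 11 early factors with a window, 3 held a CArG box (27.3%, beside 1.64%), among them Egr1. Of 19 heat shock genes with a window, 5 held a heat shock element (26.3%, beside 0.736%). NF-kB sites were not particular to the cytokine list. They were also in 3 windows of the early factors (27.3%) and in 5 of the heat shock genes (26.3%), beside 5.06%. Of the 12 higher genes of smallest p, 10 had a window, of which 5 held the HIF core (50%, beside 19.7%), 2 a CArG box and 0 an NF-kB site, an AP-1 site or a heat shock element. Of the 12 lower genes, 0 of 10 windows held any of the 5. The NF-kB and CArG motifs, the lists searched and the promoters printed were chosen after these values and the first motif shares were seen, and a match of letters shows neither binding nor a cause.

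Macrophage and leukocyte markers were measured beside the cytokine list. Of 13 tested, 0 had a limma p under 0.05, unadjusted or adjusted, where 11.1% of all probe sets had an unadjusted p under 0.05. Their median difference was 0.15, or 0.22 without the array that stood apart. Their summed intensity was 8422 to 9415 at 60 min and 8573 to 11226 at 120 min, so the groups overlapped. The 9 endothelial markers were all above 0, beside 46.8% of all probe sets, with a median of 0.15 (0.16 without that array). Their sums were 3604 to 4202 against 4264 to 5077, which did not overlap. The 12 fibroblast markers had a median of 0.14 (0.12 without it) and sums of 45070 to 49959 against 49227 to 53937. Smooth muscle and pericyte markers had the highest median of the marker lists with all arrays, 0.19 (0.17 without that array). Of them 9 of 11 lay above 0 (7 without it), beside 46.8% of all probe sets (48.6% without it). Of these 11, 6 were highest on the array that stood apart (54.5%), and their sums were 21950 to 25618 against 22481 to 26626, overlapping. The 11 cardiomyocyte markers had a median of 0.02 (0.05 without that array), with sums of 94204 to 97332 and 95819 to 98761, so the defining genes of the labelled cell type were present at both times, and 0 erythroid markers were above the level filter. The part of these cells in the cytokine values was not tested. In bulk RNA, more cells of a type and more RNA per cell cannot be told apart.

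Of 17 AP-1, Egr and Nr4a immediate early factors, 4 were higher with an unadjusted p under 0.05 (Egr1, Fos, Jun and Junb), beside 5.42% of all probe sets, and Egr3 was lower (-0.25 ± 0.10), beside 5.66%. Without the array that stood apart 6 were higher and 1 lower, beside 5.32% and 6.32%. The list's median was 0.26, and 0.36 without the array that stood apart. Jun, the main partner of Fos, was at 10.70, 11.33, 10.98 and 11.59 and then at 11.74, 11.61, 11.07 and 11.89. The groups overlapped through the array that stood apart, 11.07. Without it they did not overlap, and the difference went from 0.42 ± 0.12 to 0.63 ± 0.12. All 3 tested probe sets of Jun gave 0.42 to 0.48. Junb, another AP-1 subunit, was at 9.50, 9.51, 9.66 and 9.94 and then at 10.08, 10.05, 10.34 and 10.06, without overlap, a difference of 0.48 ± 0.16 (0.41 without the array that stood apart).

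Atf3, a stress-induced repressor of the same superfamily, was at 10.54, 10.62, 10.91 and 11.10 at 60 min and at 12.01, 12.04, 10.69 and 11.84 at 120 min. Of the later arrays only the one that stood apart fell within the early range. The difference was 0.85 ± 0.43 with all arrays (interval -0.10 to 1.81) and 1.14 ± 0.42 without it (interval 0.22 to 2.07; limma adjusted p = 0.34). Nr4a1 (0.26 ± 0.19) and Nr4a3 (0.08 ± 0.25), orphan nuclear receptors of the early response, and Jund (0.03 ± 0.35) had intervals that included 0. Fosb ranged from 5.87 to 9.91 over the 4 later arrays, and its difference was -0.07 with all arrays and 0.55 without the array that stood apart.

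Of 22 early response feedback genes, such as phosphatases and RNA-binding proteins that end the early response, 18 lay above 0, beside 46.8% of all probe sets, with a median of 0.11. Without the array that stood apart 17 did, beside 48.6%. With all arrays 12 of the 22 had the same direction in both preparations, all of them higher. This share of agreement was below the 60.3% of all probe sets that had the same direction in both, counting either direction. Ier2, a nuclear protein of the immediate early class, was at 9.62, 9.66, 9.55 and 9.68 and then at 10.43, 10.48, 10.29 and 9.81. Its groups did not overlap, and the difference was 0.63 ± 0.17, or 0.51 without the array that stood apart. Plk2, a stress-responsive polo-like kinase, differed by 0.51 ± 0.23, or 0.66 without that array.

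The heat shock list had no common direction. Of 22 members, 0 had an unadjusted limma p under 0.05, beside 11.1% of all probe sets. The median was -0.03, or 0.02 without the array that stood apart. Without it 1 member, Hspa4, reached an unadjusted p under 0.05 (-0.44), beside 11.6% of all probe sets. Whether these counts differ from those shares was not tested. Hspa1a, the inducible Hsp70, was at 12.96, 12.76, 13.02 and 13.04 at 60 min and at 13.25, 13.21, 9.75 and 13.00 at 120 min. The array that stood apart was over 3 units below its 3 mates, which overlapped the 60 min arrays. The difference was -0.65 ± 0.59 with it (interval -1.93 to 0.64) and 0.16 ± 0.44 without it (interval -0.79 to 1.12), so its sign depended on 1 array. Hspa1a means in this arm were 9.15, 9.29 and 9.84 at 0, 10 and 30 min. In ischemia alone at 120 min, the arrays other than preparation 2, duplicate 2, were at 9.62 to 10.19, and that array was at 13.15.

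**Figure D3:**
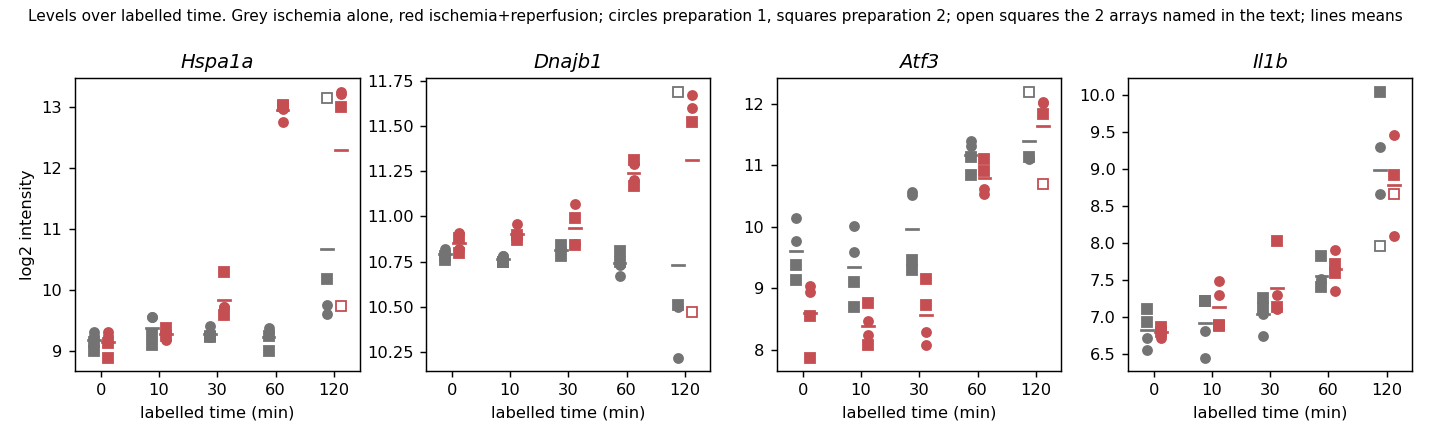
Log2 intensity over labelled time for Hspa1a, Dnajb1, Atf3 and Il1b on each array of ischemia alone (grey) and ischemia+reperfusion (red), with group means as lines. At 120 min the open squares are preparation 2, duplicate 1, of ischemia+reperfusion and preparation 2, duplicate 2, of ischemia alone, and for Hspa1a, Dnajb1 and Atf3 each lies among the arrays of the other arm or beyond them. For Il1b the ischemia+reperfusion square, 8.67, lies within the range of its own group (8.10 to 9.47), and the ischemia alone square, 7.96, is the lowest of its group.

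Co-chaperones that work with Hsp70 followed the same array. Dnajb1, the main Hsp40 partner, was at 11.29, 11.20, 11.31 and 11.17 and then at 11.60, 11.67, 10.47 and 11.52. Without the array that stood apart its groups did not overlap, and the difference went from 0.07 ± 0.21 to 0.34 ± 0.16 (interval -0.02 to 0.69; limma adjusted p = 0.45). Bag3, a nucleotide exchange factor of Hsp70 in muscle, was at 12.33, 12.33, 12.29 and 12.50 and then at 12.43, 12.40, 11.60 and 12.35, a difference of -0.17 that became 0.02. Dnajb4 went from 0 to 0.18, Hsph1 from -0.04 to 0.09 and Dnaja1 from -0.17 to -0.03. Their other tested probe sets went from 0.12 to 0.38 for Hsph1 and from -0.25 to 0.06 for Dnaja1, and that of Dnajb1 from -0.03 to 0.33. The abundant chaperones Cryab (0.01 ± 0.05), Hspd1 (-0.03 ± 0.05), Hspb1 (-0.09 ± 0.07) and Hsp90ab1 (0.02 ± 0.05) varied little between the times.

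**Figure D4:**
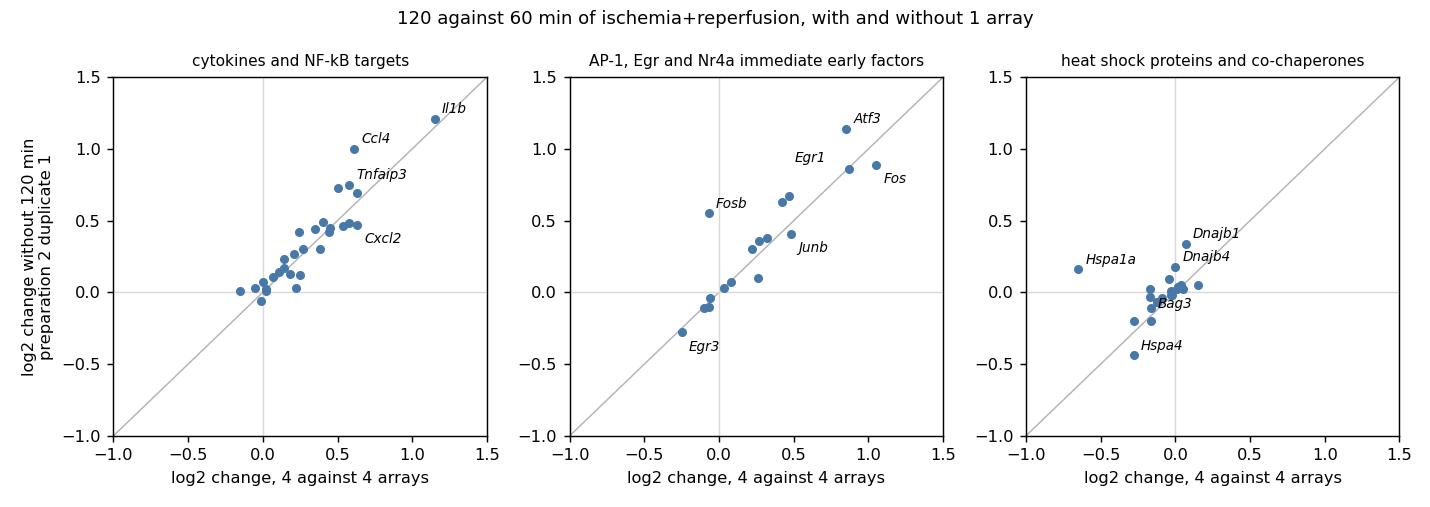
Log2 difference between 120 and 60 min of ischemia+reperfusion for members of 3 lists, with all 4 late arrays (x axis) and without preparation 2, duplicate 1 (y axis); the diagonal marks equal values. Cytokine genes lie mostly above 0 on both axes, Ccl4 and Atf3 lie above the diagonal, and Hspa1a lies far above it, at -0.65 against 0.16.

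Of 24 sterol synthesis genes tested, 6 were higher with an unadjusted limma p under 0.05 (0 lower), beside 5.42% of all probe sets, with a median of 0.13. On the array that stood apart 16 were highest. Without it 3 were higher at that p, beside 5.32%, and the median was 0.09. Tm7sf2, a sterol reductase, was higher by 0.46 ± 0.12, or 0.34 without that array. Acly, which makes cytosolic acetyl-CoA, was at 10.95, 10.99, 10.98 and 10.94 and then at 11.07, 11.15, 11.48 and 11.17. Acly groups did not overlap (0.25 ± 0.09, and 0.17 without that array), and Srebf1, a master regulator of lipid synthesis, differed by 0.30 ± 0.13 (0.24 without it).

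Of 24 genes of glucose transport and glycolysis, 1 was higher and 2 were lower with an unadjusted p under 0.05, and of 25 other HIF targets 1 was higher (Rora, 0.77 ± 0.30, with 1 early array at the floor). These shares are near those of all probe sets, 5.42% higher and 5.66% lower, and the counts were the same without the array that stood apart. Pdk4, the kinase that closes pyruvate dehydrogenase, was at 8.12, 8.6, 8.90 and 9.40 and then at 9.79, 9.28, 9.20 and 9.93. The groups overlapped, with a difference of 0.80 ± 0.23 (0.98 without that array), or 0.17 on its other probe set. Pfkfb2 and Pfkfb3 set the activator of phosphofructokinase. Pfkfb2 differed by -0.31 ± 0.10, and by -0.02 on its other probe set. Pfkfb3 differed by -0.56 ± 0.23 here and by 1.19 in ischemia alone, a difference between the arms of -1.75 ± 0.33 that did not pass (limma adjusted p = 0.12). Vegfa (0.02 ± 0.16) and Slc2a1, the glucose transporter GLUT1 (0.04 ± 0.21), had intervals that included 0. The 29 respiratory chain and ATP synthase genes lay between -0.10 and 0.03, and 17 cytosolic ribosomal proteins between -0.07 and 0.06.

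Of 27 collagens and matrix enzymes, 6 were higher with an unadjusted limma p under 0.05 (0 lower), beside 5.42% of all probe sets, and 5 without the array that stood apart, beside 5.32%. Groups did not overlap, with 120 min higher, for 6, beside 3.21%, and for 8 without that array, beside 4.91%. The median was 0.13 in both fits. Col6a1, a collagen VI chain, was higher by 0.33 ± 0.11 (0.25 without that array), Col6a2, its partner chain, by 0.37 ± 0.12, and Dcn, a collagen-binding proteoglycan, by 0.28 ± 0.11. The fibroblast and the smooth muscle and pericyte marker values are given above, and their part in the collagen values was not tested.

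In the circadian list, Per2, a repressor of the clock, was at 8.62, 8.04, 8.39 and 7.97 and then at 9.50, 9.49, 8.95 and 8.71. Its groups did not overlap, and the difference was 0.91 ± 0.18 (interval 0.51 to 1.30; limma adjusted p = 0.18), or 0.84 without the array that stood apart. The mean of Per2 was 8.05 at 0 min, where its arrays ran from 6.83 to 8.91. Cry2, another repressor, differed by 0.34 ± 0.14, and of the 13 members 3 were higher and 1 lower with an unadjusted p under 0.05, beside 5.42% and 5.66% of all probe sets, with the same counts without the array that stood apart. The splicing kinases Clk4 (0.27 ± 0.07) and Clk1 (0.31 ± 0.09), which phosphorylate SR proteins, were higher on non-overlapping groups. They were taken by smallest p from 23 splicing and RNA processing genes, whose median was 0.03, or -0.01 without the array that stood apart. Of the 23, 4 were higher and 0 lower with an unadjusted limma p under 0.05, beside 5.42% and 5.66%. Groups did not overlap, with 120 min higher, for 3, beside 3.21% of all probe sets.

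The step from 60 to 120 min was also set against the same step in ischemia alone. That step uses none of the same arrays but the same preparation numbers and variance estimates. Only 1 of 18625 probe sets passed the test of the difference (0.00537%; 1866, or 10%, at an unadjusted p under 0.05). It was Gpr12, an orphan G protein-coupled receptor, with a difference of -0.94 ± 0.11 (limma adjusted p = 0.039). Gpr12 in ischemia+reperfusion was at 6.96, 6.79, 6.80 and 7.07 and then at 6.86, 6.78, 7.01 and 6.77, a step of -0.05. The difference came from ischemia alone, where it was at 5.43, 6.27, 6.15 and 5.88 at 60 min and at 6.93, 6.68, 6.80 and 6.88 at 120 min. These levels are dim, near the filter of 6.48, and the test passed in 11 of 25 alternative fits. Without the 2 doubted arrays, 2 probe sets passed the test between arms (0.0107%), and 2318 had an unadjusted p under 0.05 (12.4%).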

How the data were processed

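Biotinylated cRNA made from total RNA was hybridized to Affymetrix arrays, per the labels' protocols. The deposited values are linear intensities per probe set that run from -1725 to 17404, with 15.8% negative; the algorithm that made them is not given in the sources used here. Of 31042 probe sets, 20826 carried 1 gene symbol. Intensities were quantile-normalized over the 40 arrays, floored at 0 and transformed as log2(value + 16), which understates changes at low intensity. The test took those whose mean over the arrays was above the 40th percentile (6.48), 18625 in all; 0.0503% of their values on the 8 arrays were at the floor. Median deposited intensities of the 8 arrays were 122 to 160.

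Duplicates were averaged, and limma 3.58.1 in R 4.3.3 fitted all 10 groups with the preparation as a block (9 residual degrees of freedom, prior 2.27), with two-sided moderated tests. The labels number the preparations within each group and do not say whether a number means the same isolation in all groups. The block and the pairing take it so. The preparation differences of the compared groups correlated by 0.27. None of the 4 duplicate pairs compared held identical values. The fit was tested on simulated data. For the step in each arm the 60 to 120 min differences were contrasted in the same fit.

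The comparison, the gene lists (34, with 739 genes, 627 tested) and the motifs were chosen with earlier results of these data known. Genes were named by rule: the 12 of smallest p per direction, 2 or more from each list, those that pass without the doubted array, those that set that array apart, and those past the test between arms. Further members of the cytokine, early factor and heat shock lists were singled out after their values were seen. Each gene is represented by its brightest tested probe set in lists. Alternatives covered each array left out, the block, the scale, the pseudocount, the filter and arrays taken as samples; the counts of non-overlapping groups without the doubted array were added after the data were seen. The planned promoter search of genes past the threshold had none to use, so the sets given were searched instead.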

Additional observations from a re-analysis of the deposited data

Results flagged for a closer look

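Among the 124 groups of 4 arrays of the genes described, 12 had a highest or lowest array separated from the rest by more than Dixon's critical value for 4 samples allows. Chance flags about 1 in 20 groups. The array of preparation 2, duplicate 1, at 120 min of ischemia+reperfusion accounted for 8 of the 12. The genes described include some chosen because they set that array apart and heat shock and early factor genes singled out after their values were seen, so this tally is partly fixed by the choice of genes. On it Hspa1a was at 9.75 (others 13.00 to 13.25), Atf3 at 10.69 (others 11.84 to 12.04), Dnajb1 at 10.47 (others 11.52 to 11.67), Dnajb4 at 10.95 (others 11.67 to 11.76), Bag3 at 11.60 (others 12.35 to 12.43), A4galt at 7.89 (others 8.51 to 8.62) and Clock at 6.17 (others 6.96 to 7.02), all lowest. Junb was highest on it, at 10.34 (others 10.05 to 10.08).

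At 60 min, Vcf2 was at 8.86 on preparation 1, duplicate 2 (others 8.39 to 8.43), Clock at 7.86 on preparation 1, duplicate 1 (others 7.36 to 7.42), Dnaja1 at 12.26 on preparation 1, duplicate 2 (others 12.34 to 12.35), and Tnfaip6 at 6.74 on preparation 2, duplicate 1 (others 7.37 to 7.41).

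The 60 to 120 min step of Gpr12 differed between the arms by -0.94 (limma adjusted p = 0.039).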

How the results depend on the processing

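As labelled, 0 probe sets passed in the 120 against 60 min comparison. The count was 0 to 4 with each array left out in turn, and 4 was reached without the 120 min array of preparation 1, duplicate 2. It was 1 without the preparation block, and the pairing by preparation thus changed 1 call, A4galt. It was 1 at a pseudocount of 64, 1 with the filter at the 60th percentile and 8 without a filter (5 higher, 3 lower). With the 40 arrays taken as samples, which counts duplicates as separate samples (estimated correlation 0.08), 59 passed (0.317%; 36 higher, 23 lower). Values as deposited, whose median change was -0.12, gave 0. The count was also 0 with centred medians, at a pseudocount of 1, without both doubted arrays of 120 min, and on the 8 arrays alone.

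In the test between arms the count was 1, and 0 to 5 with each array left out (5 without the ischemia+reperfusion 120 min array of preparation 1, duplicate 1). It was 2 without both doubted arrays, 0 without the block, 37 with 40 arrays as samples, 15 on the arrays compared alone, 0 at a pseudocount of 64, 6 without a filter and 0 at the 60th percentile.

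Of 1102 values of named genes under alternatives, 18 changed sign, for Hspa1a, Fosb, Hsph1, Dnajb1, Dnajb4 and Bag3. Without both doubted arrays Hspa1a was 0.16, Fosb 0.55, Hsph1 0.09, Dnajb4 0.18 and Bag3 0.02. Fosb was 0.04 at a pseudocount of 64 and Dnajb1 -0.04 on the deposited scale. With each array left out, Hspa1a ranged from -1.46 to 0.16, Fosb from -0.69 to 0.55, Hsph1 from -0.16 to 0.09, Dnajb1 from -0.19 to 0.34, Dnajb4 from -0.19 to 0.18 and Bag3 from -0.35 to 0.02. Of 594 list medians, 584 moved by less than the SD of their members' changes, and 8 of the other 10 were those of the values as deposited.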

Other observations

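With a change of at least 1 log2 unit and no test applied, 42 probe sets were higher at 120 min (0.226%) and 22 lower (0.118%), or 49 and 33 without the array that stood apart. The largest difference in a list was that of Mybbp1a, a nucleolar repressor, whose values were 5.6, 8.23, 4 and 4.22 at 60 min and 7.13, 8.25, 7.93 and 9.31 at 120 min (2.64 ± 0.98); 1 early array was at the floor, and the groups overlapped. Tp53inp1, a p53 target of autophagy, was at 6.84, 7.88, 6.97 and 7.27 and then at 5.05, 4.47, 6.48 and 7.27 (-1.42 ± 0.50), lower on both arrays of preparation 1 at 120 min.

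Prph, an intermediate filament of peripheral neurons, was at 7.43, 7.40, 7.65 and 7.52 and then at 8.01, 7.96, 8.38 and 7.91, on non-overlapping groups (0.57 ± 0.11; limma adjusted p = 0.18), while the median of the 5 Schwann and neuronal markers tested was 0.08. Without the array that stood apart Prph differed by 0.45, and the median of the 5 turned to -0.04. Ttn, the giant sarcomere spring, was at 11.50, 11.43, 11.60 and 11.73 and then at 11.85, 11.80, 12.48 and 12.01 (0.47 ± 0.22, or 0.35 without that array), and the 27 sarcomere genes had a median of -0.01 (-0.02 without it). Egfl7, a secreted endothelial factor, was at 8.02, 8, 8.10 and 8.04 and then at 8.76, 8.48, 7.94 and 8.54. Only the array that stood apart lay below the early values, and the difference was 0.38 ± 0.15, or 0.54 ± 0.14 without it. Its other tested probe set gave -0.35, and -0.18 without that array.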
